A study of Mus musculus with 42 samples.

Results

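Injection of a control morpholino was compared with no injection in mouse preimplantation embryos. The comparison uses 18 of the 42 arrays of the series, namely every control-injected array and the uninjected arrays of the same experiment and time. There were 3 arrays each of control-injected and uninjected embryos 20 h after injection in the Nanog experiment, 3 and 3 at 44 h in the experiment that also held the Oct4 and Sall4 morpholinos (the Oct4/Sall4 experiment below), and 3 and 3 at 44 h in the Nanog experiment. All embryos were of the strain B6D2F1, a hybrid of C57BL/6 and DBA/2 mice, and were grown in drops of human tubal fluid medium with 10% serum supplement. The control-injected embryos received an oligomer whose target sequence is absent from the mouse, and the uninjected embryos received nothing. Embryos injected without an oligomer, or with a second control sequence, were not analysed here, so the needle, the injected volume and the control oligomer cannot be told apart. How many embryos were pooled for an array is not stated by the labels. RNA of whole embryos was measured, and fewer cells and less RNA per cell cannot be told apart. The labels call the replicates biological without naming a litter or day, so p-values measure the spread between these samples.

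A morpholino is a short synthetic antisense oligomer that pairs with an mRNA and blocks its translation or splicing without recruiting an enzyme that cuts it. A control oligomer of unrelated sequence is injected beside it to separate the loss of the target from the handling of the embryo. Preimplantation embryos clear the transcripts stored in the egg and switch on their own genome, so the level of both sets of transcripts depends on how far an embryo has developed.

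The question was what injection with the control oligomer changed, and what it changed in all 3 settings. Values are deposited intensities, which are linear array signals, given to 1 probe set per gene. Changes are log2 differences of (intensity + 16), control-injected minus uninjected, and understate the change of dim genes. Each of 15478 genes was tested with limma's moderated statistic with Benjamini-Hochberg adjustment over all of them, with 0.05 as the threshold for the adjusted p. Arrays of the Nanog experiment had medians of 193 to 227 and the others of 26.1 to 33.3, so intensities are set side by side only within an experiment. Replicates of the 6 groups correlated at 0.916 to 0.953 (Pearson's r). Of 8 preimplantation embryo markers all had a group mean above the median of their arrays in 5 groups, and 6 had one in control-injected embryos at 20 h, where Nanog averaged 111 and Krt18 179. Their summed intensity was 19300.0 to 21470.0 on control-injected and 22060.0 to 23020.0 on uninjected arrays at 20 h, 8568 to 10260.0 and 9927 to 10600.0 at 44 h in the Oct4/Sall4 experiment, and 22870.0 to 24980.0 and 24260.0 to 28370.0 in the Nanog experiment. Of 7 blood and stromal markers on the array at most 2 had a group mean above the median of their arrays. Their summed intensity was 528 to 698 on control-injected and 759.8 to 799.5 on uninjected arrays at 20 h, 72.1 to 108 and 82.3 to 148 at 44 h in the Oct4/Sall4 experiment, and 497 to 897 and 603 to 900.2 at 44 h in the Nanog experiment. Of 9 granulosa and cumulus markers at most 3 were above the median. Their summed intensity was 2369 to 3638 on control-injected and 2376 to 4993 on uninjected arrays at 20 h. At 44 h it was 768 to 1151 and 1120 to 1238 in the Oct4/Sall4 experiment, and 1982 to 3269 and 1461 to 3720 in the Nanog experiment. Amhr2 was the brightest of them, with means of 1901 in control-injected and 2410 in uninjected embryos at 20 h. At 20 h the sums of the embryo markers and of the blood and stromal markers were both lower on every control-injected array. The part of these markers in the results below was not tested.

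Few genes passed limma's test in any setting. On simulated data 21 to 24 of 100 genes changed by 1 on the log2 scale were recovered per setting, so most changes of this size would be missed. The same simulation gave 10 false calls at 20 h, and 4 and 2 at 44 h in the Oct4/Sall4 and the Nanog experiment. On the mean of the 3 settings it gave 12. At 20 h, 14 genes passed (0.0905% of those tested), 9 higher (0.0581%) and 5 lower (0.0323%) with the control morpholino. At 44 h, 15 passed in the Oct4/Sall4 experiment (0.0969%), 10 higher (0.0646%) and 5 lower (0.0323%), and quantile normalization gave 9 and 7. In the Nanog experiment 54 passed at that time (0.349%), 26 higher (0.168%) and 28 lower (0.181%). Which experiment had more calls at 44 h depended on the constant added before the log2. With 1 in place of 16 the counts were 16 in the Oct4/Sall4 and 10 in the Nanog experiment, and with 64 they were 12 and 302. At an unadjusted p under 0.05 there were 901 genes at 20 h, and 855 and 1608 at 44 h in the Oct4/Sall4 and the Nanog experiment. The 3 comparisons share no array, and their changes were weakly correlated across the 15478 genes. Pearson's r was 0.0449 between 20 h and 44 h of the Oct4/Sall4 experiment, 0.151 between both times of the Nanog experiment and 0.115 between both experiments at 44 h. These are correlations across genes, which are not independent of each other. Both changes had the same sign for 51.5%, 56.6% and 55.8% of genes in the same order. Calls were shared by 2 comparisons for 3 genes: Krtap6-3, lower at both times of the Nanog experiment, and Rpl39l and Gtf2f2, lower at 44 h in both experiments. Rpl39l and Gtf2f2 made up 13.3% of the calls in the Oct4/Sall4 experiment and 3.7% of those in the Nanog experiment.

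**Figure D1:**
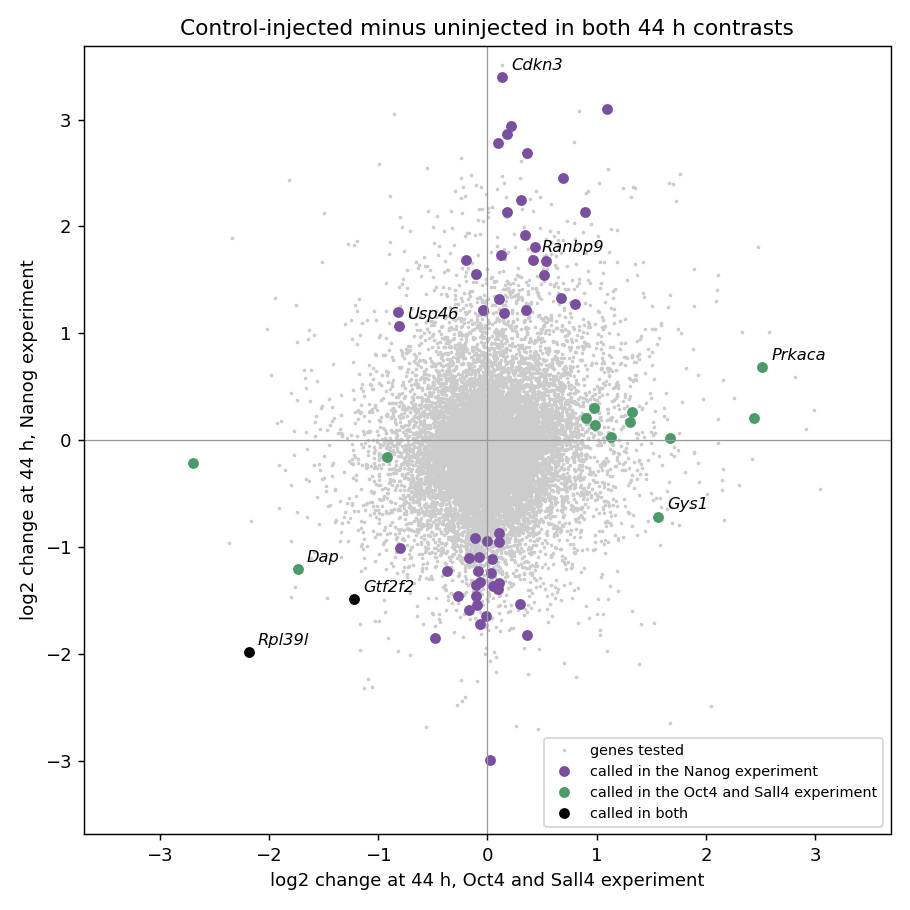
Log2 change of each of the 15478 genes tested, control-injected minus uninjected at 44 h, in the Oct4/Sall4 experiment (x axis) and in the Nanog experiment (y axis). Grey dots are genes, coloured points passed limma's test in 1 experiment, and the black points, Rpl39l and Gtf2f2, passed in both.

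On the mean of the 3 comparisons 10 genes passed (0.0646%), 3 higher (0.0194%) and 7 lower (0.0452%), and in each of them all 3 changes had the same sign. Those lower with the control morpholino were Rpl39l, Gtf2f2, Dap, Krtap6-3, Krtap17-1, Ints13 and Anapc16, and those higher were Pex19, Ranbp9 and Snrnp48. Median centring gave 3 higher and 2 lower. A gene could pass on the mean through 1 comparison alone. The count of 10 was 112 without uninjected replicate 1 at 20 h, 32 without uninjected replicate 1, 21 without control-injected replicate 2 and 16 without uninjected replicate 3 of the Nanog experiment at 44 h. It was 6 without control-injected replicate 1 at 20 h, without uninjected replicate 2 of the Nanog experiment at 44 h or without control-injected replicate 2 of the Oct4/Sall4 experiment, and 5 without control-injected replicate 1 of the Oct4/Sall4 experiment. Rpl39l and Gtf2f2 had the smallest adjusted p-values of the 10 and were lower on every control-injected array than on every uninjected array of their own setting. Over the genes tested, 16 genes were lower (0.103%) and 9 higher (0.0581%) without overlap in the 3 settings, and of these 25 only Rpl39l, Gtf2f2, Snrnp48 and Pex19 passed on the mean.

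Rpl39l encodes a paralogue of the ribosomal protein Rpl39, known in mice for its use in the ribosomes of male germ cells, and Gtf2f2 encodes the small subunit of TFIIF, a general factor that escorts RNA polymerase II to promoters. Their promoters are shown because both genes were lower in 3 settings that share no array. Each sequence runs 5′ to 3′ on the gene's strand from 250 bases before the annotated start to 50 bases after it, as in RefSeq on the build GRCm38.p6. Rpl39l lies on the plus strand at chr16:10169978-10170277 and Gtf2f2 on the minus strand at chr14:76010816-76011115. Capitals mark the letters GGAAG or their reverse complement CTTCC, which hold the core GGAA of sites that ETS factors bind. Copies of GGAA on either strand without the following G are also present and are left in lower case.
Rpl39l: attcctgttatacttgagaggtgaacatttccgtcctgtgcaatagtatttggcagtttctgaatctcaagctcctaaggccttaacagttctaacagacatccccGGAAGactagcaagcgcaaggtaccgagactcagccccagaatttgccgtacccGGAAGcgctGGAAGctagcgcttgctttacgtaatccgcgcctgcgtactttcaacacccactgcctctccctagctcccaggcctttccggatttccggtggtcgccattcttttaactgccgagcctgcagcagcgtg
Gtf2f2: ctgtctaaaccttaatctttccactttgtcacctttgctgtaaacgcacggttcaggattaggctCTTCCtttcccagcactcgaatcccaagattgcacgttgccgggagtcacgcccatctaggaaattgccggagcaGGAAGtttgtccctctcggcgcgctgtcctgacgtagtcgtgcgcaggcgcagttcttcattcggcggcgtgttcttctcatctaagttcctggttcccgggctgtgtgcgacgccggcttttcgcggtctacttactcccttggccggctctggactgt
The window of Rpl39l held GGAAG 3 times on the strand shown, and that of Gtf2f2 held it once on each strand. GGAAG on either strand is found in 71.4% of the 32851 promoter windows of the same length. Neither window held, on either strand, the TATA-box letters TATAAA, found in 13.6% of all windows, the CAAT-box letters CCAAT, found in 37.4%, or the GC-box letters GGGCGG, found in 35.7%. These matches describe the letters only.

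Rpl39l was measured by 1 probe set. At 20 h its intensity was 1619.7, 764 and 715 in control-injected embryos, against 2163, 5240.2 and 1722 in uninjected embryos. At 44 h in the Oct4/Sall4 experiment it was 481, 552 and 493 in control-injected embryos, against 2167, 2399.9 and 2533 in uninjected embryos. At 44 h of the Nanog experiment it was 1431, 1533 and 1447 in control-injected embryos, against 6121, 7067 and 4669 in uninjected embryos. The groups did not overlap, narrowly at 20 h and by a wide gap at 44 h. The log2 change was -1.47 (SE 0.357, adjusted p = 0.123) at 20 h, -2.18 (adjusted p = 0.0047) at 44 h in the Oct4/Sall4 experiment and -1.99 (adjusted p = 0.00679) in the Nanog experiment. The mean was -1.88 (SE 0.206, 95% interval -2.30 to -1.46, adjusted p = 2.26e-06 in limma). The 44 h call in the Nanog experiment was lost without uninjected replicate 2 (adjusted p = 0.0557). Rpl39 itself had a mean change of -0.00 (95% interval -0.64 to 0.63, adjusted p = 0.999).

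Gtf2f2 was likewise measured by 1 probe set. At 20 h it read 4064, 2296 and 3750.4 in control-injected embryos, against 5859, 6238 and 5595 in uninjected embryos. At 44 h in the Oct4/Sall4 experiment it read 352, 439 and 420.2 in control-injected embryos, against 959, 1112 and 820.3 in uninjected embryos. In the Nanog experiment at 44 h it read 1866, 1455 and 2595 in control-injected embryos, against 5604, 4912 and 5781 in uninjected embryos. Control-injected arrays were the lower ones in each setting. The log2 change was -0.85 (SE 0.219, adjusted p = 0.16) at 20 h, -1.22 (adjusted p = 0.0111) and -1.49 (adjusted p = 0.001) at 44 h, and the mean was -1.19 (adjusted p = 2.26e-06 in limma). The 44 h call in the Oct4/Sall4 experiment was lost without control-injected replicate 1, which gave an adjusted p of 0.12, and without control-injected replicate 3 or uninjected replicate 2. With the 18 arrays fitted alone, the 44 h calls were lost for Rpl39l (adjusted p = 0.104 in the Oct4/Sall4 and 0.0842 in the Nanog experiment) and for Gtf2f2 (0.118 and 0.0646). On the mean, both genes passed in each of 27 alternative settings of the processing, with adjusted p-values of at most 0.00344.

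Embryos that received a targeting morpholino were injected too, and their values stand beside those of the control here. Relative to uninjected embryos, the log2 change of Rpl39l was -0.16 (95% interval -0.89 to 0.57) with the Oct4 and -0.22 (-0.95 to 0.50) with the Sall4 morpholino at 20 h, in experiments that share no array with those above. With the Nanog morpholino, compared with the same uninjected arrays as the control, it was 0.11 (-0.62 to 0.83) at 20 h and -0.28 (-1 to 0.45) at 44 h. At 44 h it was -0.50 (-1.22 to 0.23) with the Oct4 and -0.68 (-1.41 to 0.05) with the Sall4 morpholino, again beside shared uninjected arrays. None of these 6 changes passed (adjusted p between 0.305 and 1). Gtf2f2 had -0.16 (-0.61 to 0.29), -0.08 (-0.53 to 0.37) and -0.35 (-0.80 to 0.10) with the Oct4, Sall4 and Nanog morpholinos at 20 h. At 44 h it was higher with the Oct4 morpholino, whose level is set against the same uninjected arrays as the control (0.71, 0.26 to 1.16, adjusted p = 0.0251) and had 0.62 (0.18 to 1.07, adjusted p = 0.0844) with the Sall4 and 0.09 (-0.36 to 0.53) with the Nanog morpholino. The difference between the control and the targeting morpholinos was not tested.

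**Figure D2:**
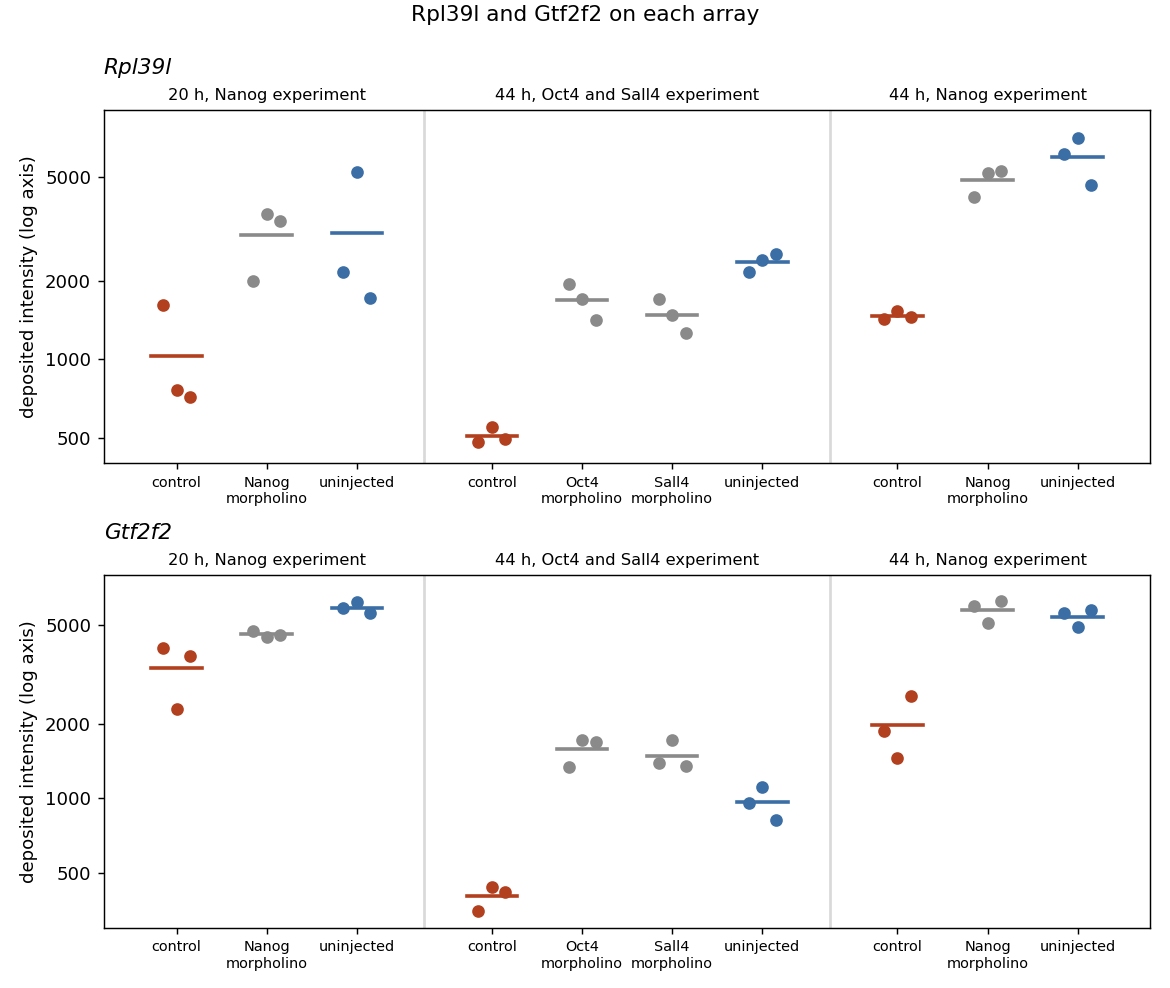
Deposited intensity (log axis) of Rpl39l and Gtf2f2 on each array of the 3 settings, with control-injected embryos in red, embryos with a targeting morpholino in grey and uninjected embryos in blue, and lines at the group means. The control-injected arrays lie below all uninjected arrays in each setting, while at 44 h the arrays of the targeting morpholinos lie above all control-injected ones.

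The other genes that passed on the mean were less even. Ints13, a subunit of the Integrator complex that processes small nuclear RNAs, had a log2 change of -0.10 at 20 h, -0.80 at 44 h in the Oct4/Sall4 experiment and -1.01 in the Nanog experiment (mean -0.64, adjusted p = 0.0311). In the Oct4/Sall4 experiment at 44 h it read 683, 711 and 1104 in control-injected embryos, against 1366, 1279 and 1657 in uninjected embryos. In the Nanog experiment it read 3942, 2452 and 4607 in control-injected embryos, against 6722, 7153 and 7554 in uninjected embryos, and its other 2 probe sets gave means of -0.64 and -0.68. Anapc16, a subunit of the anaphase-promoting complex, was more even on the probe set tested, at -0.48, -0.63 and -0.57 (mean -0.56, adjusted p = 0.0311). All 4 of its probe sets had a mean below 0, but the others were uneven. The dimmest had -1.83, -0.24 and 0.33 in the same order, and the second brightest -0.79, -1.57 and -0.53. On the probe set tested, Anapc16 read 2154, 2293 and 3180.0 in control-injected embryos at 20 h, against 3195, 4467 and 3016 in uninjected embryos, with an overlap. At 44 h the groups did not overlap in either experiment.

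Dap encodes a small protein known to restrain autophagy. At 44 h in the Oct4/Sall4 experiment it read 137, 143 and 202 in control-injected embryos, against 547, 595 and 554 in uninjected embryos. In the Nanog experiment it read 402, 374 and 529 in control-injected embryos, against 1054, 1304 and 765 in uninjected embryos, again without overlap. At 20 h the groups overlapped. The log2 changes were -0.04, -1.74 and -1.21 (mean -0.99, adjusted p = 0.0377), and the mean passed in 11 of 27 alternative settings and not with the replicate number as a block (adjusted p = 0.0545). Dap was also lower at 44 h with each targeting morpholino set against the same uninjected arrays, at -2.13 with Oct4, -1.94 with Sall4 and -1.69 with Nanog on the log2 scale (limma adjusted p = 6.02e-05, 0.000598 and 0.00231).

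Krtap6-3 and Krtap17-1, which encode keratin-associated proteins of hair, lay at the dim end. In the Nanog experiment Krtap6-3 read 9.12, 24.8 and 33.9 in control-injected embryos at 20 h, against 42.1, 127 and 100.01 in uninjected embryos. In the other experiment it stood at 6.77 ± 1.28 in control-injected and 8.79 ± 4.77 in uninjected embryos (SD, n = 3 each), both dim. Its mean change was -0.99 and that of Krtap17-1 -0.78, and with the replicate number as a block Krtap17-1 did not pass (adjusted p = 0.0609). Both genes passed the filter on low values through uninjected groups of the Nanog experiment alone, so their being called lower is in part set by the filter.

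Of the genes higher on the mean, Snrnp48, a protein of the minor spliceosome, changed mainly at 44 h in the Oct4/Sall4 experiment. There it read 2449, 2109.8 and 2893 in control-injected embryos, against 1291, 816 and 871 in uninjected embryos (log2 1.33, SE 0.186, adjusted p = 0.000819). The changes elsewhere were 0.11 and 0.26, and 1 of its 4 probe sets, the third brightest, had a mean of -0.56. Pex19, a chaperone of peroxisomal membrane proteins, changed mainly at 20 h, with 4145, 3955 and 5199.6 in control-injected embryos, against 2517, 2156 and 893 in uninjected embryos (log2 1.37, adjusted p = 0.023). Its other 2 probe sets showed -0.15 and -0.06 on the mean. With the replicate number as a block Pex19 did not pass, either at 20 h (adjusted p = 0.0933) or on the mean (adjusted p = 0.111). Ranbp9, a scaffold protein, changed in the Nanog experiment at 44 h (log2 1.69, adjusted p = 4.00e-05), where it read 2054, 3288 and 2893 in control-injected embryos, against 1046, 570.3 and 938 in uninjected embryos. Its second, equally bright probe set had a mean change of 0.16, against 0.73 for the one tested.

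**Figure D3:**
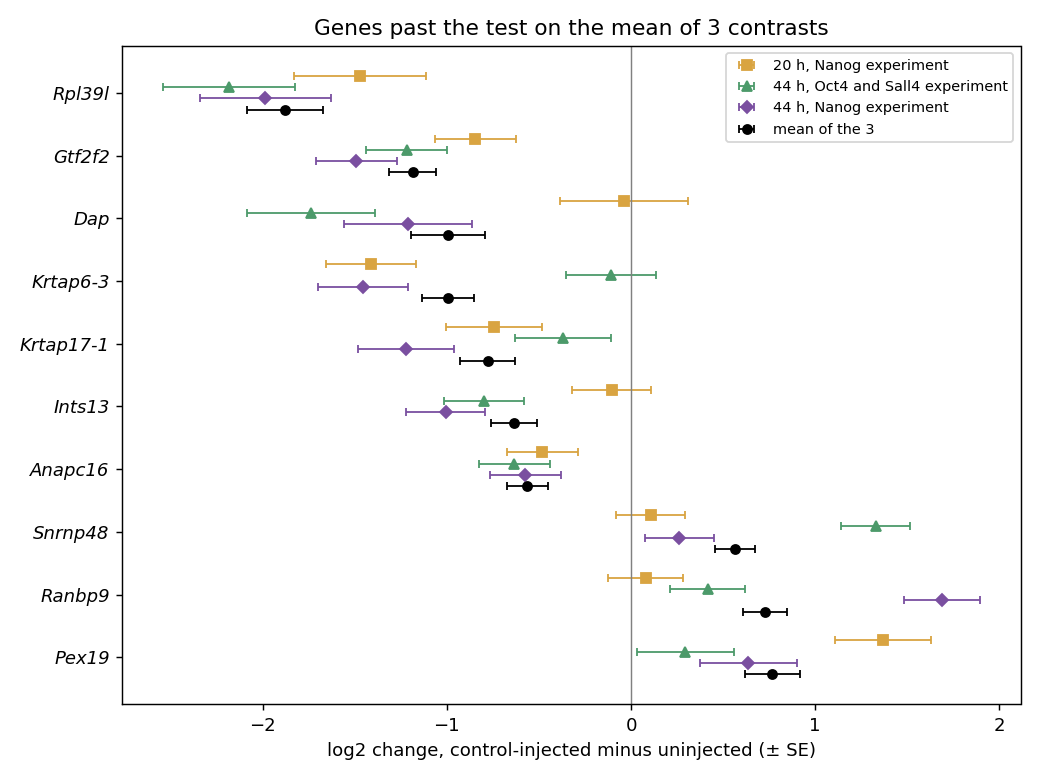
Log2 change, control-injected minus uninjected, of the 10 genes that passed on the mean of the 3 comparisons, with bars of ± SE from limma. Rpl39l, Gtf2f2, Anapc16, Pex19 and Krtap17-1 lie on 1 side of 0 by more than their SE in all 3 settings, whereas Dap, Krtap6-3, Ints13, Snrnp48 and Ranbp9 rest on 1 or 2 of them.

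Of the genes that passed at 20 h, Krtap6-3 was the only one that also passed in a 44 h comparison. Elp3, the catalytic subunit of the Elongator complex, read 783, 331 and 1284 in control-injected embryos, against 79.5, 107 and 78.7 in uninjected embryos (log2 2.78, SE 0.525, adjusted p = 0.023). These values are from 1 of its 3 probe sets. Embryos with the Nanog morpholino, set beside the same uninjected arrays, read 933, 218 and 1318. At 44 h Elp3 stood at 4531 ± 694 in control-injected and 3655 ± 482 in uninjected embryos of the same experiment. The other genes higher at 20 h were 6530409C15Rik, Zxdc, Wdfy1, Arhgap6, Mamstr, Hoxd1, Fbxl12os and Pex19, with log2 changes of 1.37 to 4.10, and of these Mamstr and 6530409C15Rik passed the filter on low values through the control-injected arrays alone. The genes lower were Filip1l, Egfl6, Fam241a, Ccdc81 and Krtap6-3, at -1.41 to -3.39. Same-numbered 20 h samples deviated together, a pairing read from the data and not from the labels. With the replicate number as a block, 8 of the 14 genes passed and Wdfy1, Filip1l, Ccdc81, Zxdc, Arhgap6 and Pex19 did not. Without uninjected replicate 2 the number of genes was 53, without uninjected replicate 1 it was 28, and without control-injected replicate 1 it was 7. Of the 14 genes, 13, 9 and 1 were among these. Without uninjected replicate 3 there were 11 genes, 2 higher and 9 lower, and 1 of the 14 was among them. So the genes named at 20 h depended on single arrays.

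At 44 h in the Oct4/Sall4 experiment, the 10 genes higher with the control morpholino included Prkaca, which encodes a protein kinase A catalytic subunit and read 198, 135 and 196 in control-injected embryos, against 28.1, 8.79 and 17.4 in uninjected embryos (log2 2.51, SE 0.366, adjusted p = 0.000834). Krt10, a keratin (2.44), Edem1, a factor of endoplasmic reticulum-associated degradation (1.67), Gys1, a glycogen synthase (1.57), Cnn3, a calponin (1.30), Gfer, a sulfhydryl oxidase of mitochondria (0.99), and Zcchc2 (1.13) also passed, as did Skap2 and Acbd5. Besides Rpl39l, Gtf2f2 and Dap, the chemokine Ccl22 (-2.70) and the arrestin-domain protein Arrdc1 (-0.92) were lower. Of the 10 higher genes, 9 were also higher at 44 h in the Nanog experiment, with a median of 0.19 against -0.09 for all genes, and none passed limma's test there (0 at an unadjusted p under 0.05). The 5 lower genes were lower in both other settings. Of all genes, 53.8% were lower at 20 h and 60.8% at 44 h in the Nanog experiment. Some of these changes were small, such as -0.04 for Dap at 20 h and -0.16 for Arrdc1 at 44 h in the Nanog experiment. In this experiment the Oct4 and Sall4 morpholinos share the uninjected arrays with the control, and Prkaca stood at 3.20 and 3.50 with them. The count of calls was 6 without uninjected replicate 3 or control-injected replicate 1, and 4 without control-injected replicate 3.

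At 44 h in the Nanog experiment, genes lower at 44 h than at 20 h in uninjected embryos made up most of the 26 genes higher with the control morpholino. Among them were Cdkn3, a phosphatase that acts on cyclin-dependent kinases (log2 3.40), Sycp2, a protein of the synaptonemal complex (2.87), Tgfb2, a ligand of the TGF-beta family (2.45), Foxm1, a factor of cell division (1.32), and Tdrkh, a Tudor protein of the piRNA pathway (1.27). Tgfb2 read 2618, 1154 and 1070.1 in control-injected embryos, against 403, 262 and 160.2 in uninjected embryos (adjusted p = 0.00361), and stood at 5813 ± 435 in uninjected embryos at 20 h. Cdkn3 read 841, 1372 and 859.7 in control-injected embryos, against 46.8, 26.95 and 315 in uninjected embryos, and stood at 2110.1 ± 264 in uninjected embryos at 20 h. Both genes were thus between the 20 h and the 44 h level of uninjected embryos. Of the 26 genes, 19 had a 44 h control-injected mean between these levels, and the median over the genes was 950.0 in control-injected embryos, against 201 in uninjected embryos at 44 h and 2331 in uninjected embryos at 20 h.

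The uninjected 44 h arrays that chose these genes also set their low 44 h level, so the fall with time was read from the other experiment. There 3088 genes were lower at 44 h than at 20 h in uninjected embryos (by at least 2-fold, adjusted p under 0.05), which is 20.0% of all genes, and 20 of the 26 were among them. None of the 26 was among the 2392 genes higher at 44 h. In the experiment with the Oct4 and Sall4 morpholinos, which shares no array with the Nanog experiment, 21 of the 26 were higher with the control morpholino. Their median was 0.26 against 0.00 for all genes, and none passed limma's test (2 at an unadjusted p under 0.05, the level that 3.13% of all genes reached in the higher direction). With the Oct4 morpholino 22 of the 26 were higher than in uninjected embryos, with a median of 0.80 against 0.02, and 9 passed, against 7.2% of all genes. With the Sall4 morpholino 18 were higher and 7 passed, against 3.57%. The 9 included Bicd2 (1.59), Cnksr3 (1.69), Tdrkh (2.33), Tubb5 (1.78) and Klhl8 (1.31). The number of calls moved with single arrays: the count of 54 was 114 without uninjected replicate 1, 15 without uninjected replicate 2, 87 without control-injected replicate 2 and 22 without control-injected replicate 3.

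**Figure D4:**
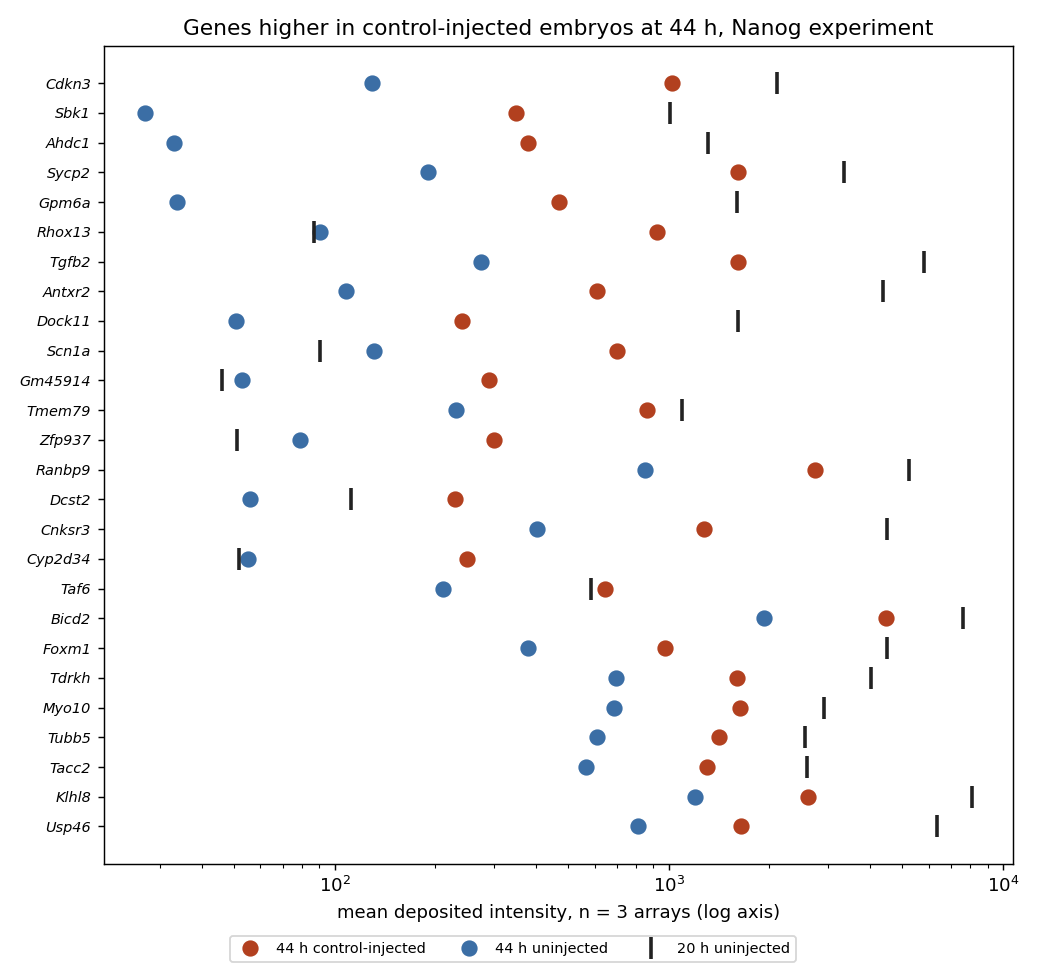
Mean deposited intensity (log axis) of the 26 genes higher in control-injected embryos at 44 h in the Nanog experiment, in control-injected (red) and uninjected (blue) embryos at 44 h and in uninjected embryos at 20 h (black bars). For 19 genes the red point lies between the blue point and the bar.

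Of the 28 genes lower in control-injected embryos of the Nanog experiment at 44 h, 22 had both group means below 959, the lowest upper quartile of the 6 arrays, as had 13 of the 26 higher genes and 59.3% of all genes tested. Of the 28, Tctex1d4 and Ksr2 passed the filter on low values through the uninjected 44 h arrays alone. Of the 26 higher genes, Cyp2d34 passed it through the control-injected 44 h arrays alone. The direction in which these genes were called is in part set by the filter. The lower quartiles of the control-injected arrays were 40.6, 43.2 and 43.8, below the 45.1, 53.6 and 54.3 of the uninjected arrays. The median change of all genes was -0.09. When each array was centred on its median, which moved that median to 0.03, the split of calls was 32 higher and 7 lower, and quantile normalization gave 29 and 16. The brighter genes that were lower included Rpl39l, Gtf2f2, Ints13, Mrpl13, a mitochondrial ribosomal protein (-1.46), and Msantd4 (-1.86). Eri3, an exoribonuclease (-1.83, adjusted p = 0.00392), passed without each of the 6 arrays in turn. In the other experiment at 44 h, 18 of the 28 were lower (64.3%, against 49.6% of all genes). At 20 h in the Nanog experiment, on other arrays, 24 of the 28 were lower (85.7%, against 53.8% of all genes). Their median at 20 h was -0.31, against -0.02 for all genes. Krtap6-3 and Krtap17-1, both among the 28, passed the filter through uninjected groups of the Nanog experiment alone. That these genes were lower at 20 h is thus in part set by the filter. This may also hold for Htr3a, which passed it through 2 groups and had uninjected means of 74.8 at 20 h and 84.2 at 44 h.

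Genes lower or higher at 44 h than at 20 h were then followed as wholes, with genes chosen on uninjected arrays of the experiment that was not read. In the Oct4/Sall4 experiment at 44 h, the 2151 genes that normally fall by 44 h had a median change of 0.13, and 60.2% of them were higher, against 50.4% of all genes and a median of 0.00. The 1143 genes that normally rise had a median of -0.04. Per array, the mean log2 level of the falling minus the rising genes was -1.84, -2.03 and -1.95 in control-injected embryos, against -2.05, -2.13 and -2.14 in uninjected embryos. These groups did not overlap, and an exact permutation test of 3 against 3 arrays cannot go below p = 0.1. In the Nanog experiment at 44 h the values were -1.61, -1.76 and -1.48 in control-injected embryos, against -1.79, -1.73 and -1.50 in uninjected embryos, and overlapped. Within pairs of the same replicate number, control-injected minus uninjected was 0.186, -0.032 and 0.017 there. The medians there were 0.00 for the 3088 falling genes and -0.06 for the 2392 rising genes, beside -0.09 for all. The difference of these medians was 0.06, and it was -0.02 without control-injected replicate 3. At 20 h the rising genes had a median of 0.07 (58.2% higher, against 46.2% of all genes) and the falling genes -0.03. Falling minus rising genes gave 0.93, 0.83 and 1.25 on the control-injected arrays, against 1.15, 0.96 and 1.34 on the uninjected arrays, which overlap as groups. Same-numbered samples were also set side by side, a pairing read from the data and not from the labels. Within these 3 pairs, control-injected minus uninjected was -0.22, -0.14 and -0.09, below 0 in each. An exact test of 3 pairs cannot go below p = 0.25.

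The 8 lists of immediate early genes, heat shock chaperones, endoplasmic reticulum and integrated stress, p53 targets, interferon response, membrane repair, antioxidant defence and apoptosis held 170 tested genes. In limma 0 of them passed in any setting or on the mean, where 0.0905%, 0.0969%, 0.349% and 0.0646% of all genes did, so that a count of 0 among so few genes is near the background. At an unadjusted p under 0.05, 6 were higher and 5 lower at 20 h, 5 and 3 at 44 h in the Oct4/Sall4 experiment, and 8 and 6 in the Nanog experiment. On the mean 7 were higher and 8 lower at an unadjusted p under 0.05, which is 8.82% against 10.4% of all genes. The 95% interval of the mean change lay within 1 log2 unit of 0 for 129 of the 170. At 44 h in the Oct4/Sall4 experiment 18 of the 22 p53 targets were higher, against 50.4% of all genes. Their median there was 0.22, against 0.00 for all genes, and 0 of them reached an unadjusted p under 0.05. The median of the p53 targets was -0.003 at 20 h and -0.08 at 44 h in the Nanog experiment. Members with the largest mean change of their lists included Fos, an immediate early factor (-0.81), Bag3, a co-chaperone (0.63), Xbp1, a factor of the unfolded protein response (1.09), and Nfe2l2, the regulator of antioxidant genes (0.87), and none of them passed (adjusted p = 0.449, 0.239, 0.63 and 0.117). Nfe2l2 had 1.43 and 1.34 at 44 h (Oct4/Sall4, then Nanog experiment) and -0.16 at 20 h.

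Of 91 tested genes of the maternal, 2-cell, pluripotency and trophectoderm lists, 0 passed in limma in any setting or on the mean, again near the background of at most 0.349%, and 5 reached an unadjusted p under 0.05 on the mean (5.49%, against 10.4% of all genes). In the 3 settings 5, 6 and 5 of them did. The 31 maternal oocyte transcripts had medians of -0.02 at 20 h, 0.16 at 44 h in the Oct4/Sall4 experiment and 0.10 in the Nanog experiment. Bcl2l10, an apoptosis regulator of the oocyte, was at 0.02, 1.54 and 1.04 (adjusted p of the mean = 0.22). The genes against which the other oligomers were directed did not pass on the mean, with Pou5f1 at -0.13, Sall4 at -0.08 and Nanog at -0.47 (adjusted p = 0.749, 0.894 and 0.65). An exact two-sided permutation of the labels within the 3 settings gave p = 0.03825 for Pou5f1, 0.2182 for Sall4 and 0.182 for Nanog. Adjustment over the 13 genes so tested gave 0.0452 for Pou5f1. Of those 13 genes, 10 were included because they had passed on the mean of the same arrays. That choice lowers the adjusted value, so it cannot decide whether Pou5f1 changed. Pou5f1 at 44 h stood at 3925 ± 456 in control-injected and 4169.9 ± 189 in uninjected embryos of the Oct4/Sall4 experiment (SD, n = 3 each). Nanog at 20 h read 39.7, 103 and 191 in control-injected embryos, against 138, 433 and 419 in uninjected embryos, so the groups overlapped and each control-injected array was below the uninjected array of its own number.

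Among 343 genes of the cell cycle, transcription, translation, proteasome, splicing and respiration, those that passed on the mean were Rpl39l, Gtf2f2 and Snrnp48, already described. Of all genes, 0.0646% passed on the mean and 0.349% at 44 h in the Nanog experiment. The 48 cytosolic ribosomal proteins had a median of -0.04, against -0.03 for all genes, with 1 lower and 0 higher in limma, and at an unadjusted p under 0.05 also 1 and 0. So Rpl39l was 1 of 48, and Gtf2f2 was 1 of 46 genes of RNA polymerase II and its general factors. With so few called, no result about these lists is drawn. Among those 46, Taf6, a subunit of TFIID, was higher at 44 h in the Nanog experiment, with 669.6, 747 and 520.4 in control-injected embryos, against 189, 276 and 170.5 in uninjected embryos (log2 1.55, adjusted p = 0.0131). Markers of blood, stroma, granulosa and cumulus cells had 0 of 25 past limma's test in any setting or on the mean, near the background of at most 0.349%. At an unadjusted p under 0.05, 1 was higher and 4 lower on the mean, which is 20% against 10.4% of all genes. The 25 had a median of -0.16 on the mean, against -0.03 for all genes, and their part in the other results was not tested.

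**Figure D5:**
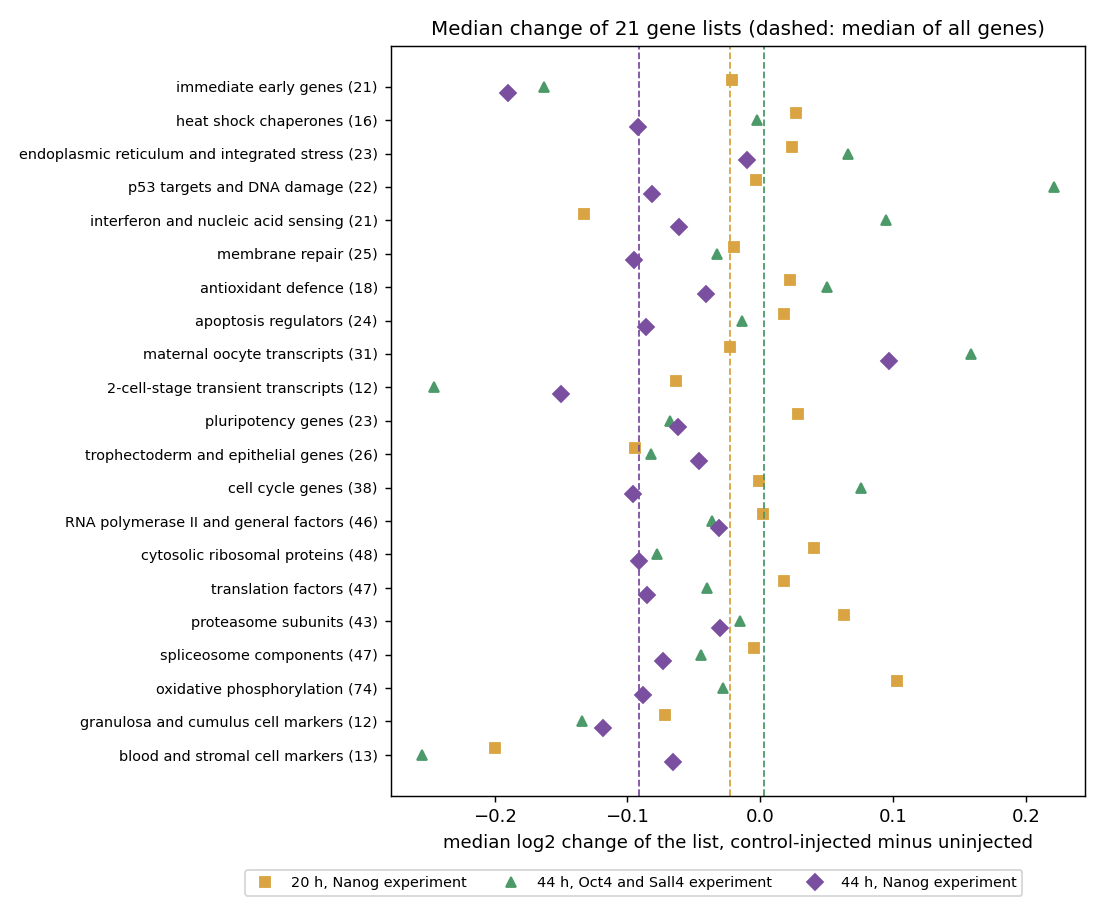
Median log2 change, control-injected minus uninjected, of 21 gene lists (number of tested members in brackets) in the 3 settings, with dashed lines at the median of all genes. The medians lie between -0.25 (blood and stromal cell markers) and 0.22 (p53 targets and DNA damage), both at 44 h in the Oct4/Sall4 experiment. The maternal oocyte transcripts were at 0.16 and 0.10 at 44 h.

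Differences between the settings were tested directly. Between both experiments at 44 h 2 genes differed (0.0129%), Usp46, a deubiquitinase, and Gys1, and between 44 h and 20 h of the Nanog experiment 2 genes differed (0.0129%), Cdkn3 and Ranbp9. At an unadjusted p under 0.05 these were 968 and 779 genes.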

How the data were processed

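Transcript levels were measured on Affymetrix arrays. Per the labels' protocols, RNA came from a PicoPure kit, and cDNA was amplified by NuGEN's WT-Ovation One-Direct system and labelled by its FL-Ovation biotin module. The authors deposited 1 intensity per probe set and array, 45101 probe sets on 42 arrays. The software behind the deposited intensity values, and any normalization between arrays, are not given in the sources used here. Deposited values are linear and run down to 0.42. The number of arrays limits the precision.

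Names came from the annotation of the array platform, in which 34945 probe sets carry 1 gene symbol, 932 several and 9160 none, and 64 are controls. Each of 18193 genes was taken from its probe set with the highest mean log2 value. Other probe sets of a gene were set beside it only for genes that passed on the mean and for Pou5f1, Sall4 and Nanog. Other genes called in a single setting, such as Cnn3 with 6 probe sets and Tgfb2 with 4, are thus given from 1 probe set each. Genes with a group mean above the median of the table (71.2) in at least 1 of 14 groups were tested, 15478 in all. All 42 arrays entered 1 linear model of log2(intensity + 16) with a mean per group (limma 3.58.1, R 4.3.3, 28 residual degrees of freedom), two-sided. The 18 arrays were compared within their own experiment and time, and 6 contrasts were tested: the 3 settings, their mean and 2 differences. Same-numbered control-injected and uninjected samples deviated together at 20 h (correlations 0.111, 0.12 and 0.114). At 44 h the correlations were -0.00, -0.01 and -0.02 in the Oct4/Sall4 experiment and 0.09, 0.13 and 0.06 in the Nanog experiment. The pairing is thus read from the data alone, at 20 h and at 44 h in the Nanog experiment. On simulated data with the spread of these arrays, the mean contrast recovered 56 of 100 genes changed by 1 on the log2 scale and 95 of 100 changed by 2, among 15478. It made 12 false calls there.

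Named genes were, among those past the test, up to 15 each way on the mean whose 3 changes have 1 sign, up to 8 each way per setting whose arrays do not overlap, and up to 4 each way per difference, by size. Of each of the 21 lists, the members past the test and the one with the largest mean change were taken, with Rpl39l, Gtf2f2, Pou5f1, Sall4 and Nanog always. Skap2, Acbd5, Foxm1, Tdrkh, Bicd2, Cnksr3, Tubb5, Klhl8, Mrpl13 and Rpl39 were chosen after their values were seen. Ksr2 and Cyp2d34 are named only for how they passed the filter. The members, lists and tests were chosen with earlier results of these data known. Promoter sequences are those of RefSeq, and both genes for which they were sought were matched. Alternatives were the pseudocount, the filter, normalization, array weights, the arrays in the fit, a replicate block, all probe sets and leaving out each array. Figures were drawn with Python 3.11.15 and matplotlib 3.10.9.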

Additional observations from a re-analysis of the deposited data

Results flagged for a closer look

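Results below are differences between settings that passed limma's test of the difference itself. The change of Usp46 with the control morpholino was 1.06 at 44 h in the Nanog experiment and -0.81 in the Oct4/Sall4 experiment, a difference of 1.88 on the log2 scale (adjusted p = 0.0432). It read 1359, 1457 and 2135 in control-injected embryos of the Nanog experiment, against 469.9, 1097 and 865 in uninjected embryos, and 104, 73.9 and 105 in control-injected embryos of the other experiment, against 224, 131 and 185 in uninjected embryos. The change of Gys1 differed by -2.28 (adjusted p = 0.0232). It read 304, 292 and 289.9 in control-injected embryos of the Nanog experiment, against 387, 673 and 466 in uninjected embryos, and 81.4, 136 and 132 in control-injected embryos of the other experiment, against 45.6, 25.1 and 17.4 in uninjected embryos.

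Between 44 h and 20 h of the Nanog experiment the change of Cdkn3 differed by 4.55 (adjusted p = 0.0383). At 20 h it read 2292, 618 and 569 in control-injected embryos, against 2121, 2368 and 1842 in uninjected embryos. That of Ranbp9 differed by 1.61 (adjusted p = 0.0383). At 20 h Ranbp9 read 4673, 5958 and 6083 in control-injected embryos, against 4993, 5714 and 5033 in uninjected embryos. Of the 22 alternatives run for each difference, Usp46 passed in 10, Gys1 in 15, Cdkn3 in 9 and Ranbp9 in 11.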

How the results depend on the processing

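Counts of genes are given for 20 h, for 44 h in the Oct4/Sall4 experiment, for 44 h in the Nanog experiment, for the mean, and for the differences between experiments and between times. Against 14, 15, 54, 10, 2 and 2 in limma, a pseudocount of 1 gave 0 at 20 h (546 at an unadjusted p under 0.05), 16 and 10 at 44 h in the Oct4/Sall4 and the Nanog experiment, 6 on the mean, and 1 and 0 for the differences (816 and 463 unadjusted). A pseudocount of 64 gave 49, 12, 302 and 36 in the same order and 11 between times. The filter on the arrays' own medians gave 8 at 20 h, quantile normalization 1 between experiments, and median centring 5 on the mean (3 higher and 2 lower) and 7 between times. Array weights gave 9, 27, 192, 80 and, between experiments, 4. The 18 arrays alone gave 30, 3, 3 and 5, and 0 and 0 for the differences (1035 and 898 at an unadjusted p under 0.05). The arrays of each contrast alone gave 0 in limma for the 3 settings and both differences, with 706, 960, 1815, 1221 and 803 at an unadjusted p under 0.05. Testing every probe set gave 31 genes at 20 h, 94 in the Nanog experiment at 44 h, 27 on the mean and 7 between times. The replicate block gave 8 at 20 h, 8 in the Oct4/Sall4 experiment and 1 between experiments, and 38 in the Nanog experiment at 44 h, 30 of them among the 54. Every sample correlated best with its own number at 20 h and at 44 h in the Nanog experiment, a hint from the data and not the design, and none did in the Oct4/Sall4 experiment.

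Leaving out 1 array at a time gave 7 to 53, 4 to 15, 15 to 114, 5 to 112, 0 to 10 and 0 to 9 genes. The 112 came without uninjected replicate 1 at 20 h. For falling minus rising genes the range was -0.19 to -0.03 at 20 h, 0.12 to 0.20 at 44 h in the Oct4/Sall4 experiment and -0.0185 to 0.133 in the Nanog experiment, where the sign turned without control-injected replicate 3. Of the 10 genes that passed on the mean, Rpl39l and Gtf2f2 passed in all 27 alternatives, Ranbp9 in 26, Snrnp48 in 22, Pex19 in 17, Ints13 in 16, Anapc16 in 14 and Dap in 11, and of 25 alternatives Krtap6-3 passed in 24 and Krtap17-1 in 14. None of the 63 gene results run under these alternatives changed sign, and other called genes were not run. An exact permutation is among the alternatives on the mean, and for genes chosen without overlap its result follows from that choice. In simulated data with 3 arrays a group, 21 to 24 of 100 genes changed by 1 on the log2 scale were recovered per setting. The cause of the moves above was not tested.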
